A study of Mus musculus with 10 samples.

Results

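The genes of this report encode the collagens of the basement membrane, the thin sheet of matrix under epithelia and around vessels, muscle fibres and nerves. They are the 6 collagen IV genes *Col4a1* to *Col4a6*, the anchoring fibril collagen *Col7a1*, and *Col15a1* and *Col18a1*, which encode proteoglycan collagens of basement membrane zones. Members were taken by symbol, and each of the 9 matched a single row among the 53465 genes counted. Of these 9, 8 passed the filter on low counts, as did 16426 genes in all. Whole pinna prominences, the buds of the outer ear, were micro-dissected from C57BL/6J mouse embryos at stage E14.5 and profiled by bulk RNA-seq. WT embryos (n = 5) were compared with mEC1dup/dup embryos (n = 5), a CRISPR/Cas9 knock-in in which each allele carries an extra copy of mEC1, an enhancer of the homeobox gene *Hmx1*. The comparison asks which genes respond in the growing ear when this enhancer is duplicated. Embryos of a genotype were siblings from separate litters, and which of the libraries share a litter was not stated.

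Collagen IV molecules are trimers that assemble into a network beside the laminin network, to which nidogen and perlecan bind. The chains of *Col4a1* and *Col4a2* form the trimer found in nearly every basement membrane, whereas those of *Col4a3*, *Col4a4* and *Col4a5* serve kidney, lung, eye and inner ear, and those of *Col4a5* and *Col4a6* occur in skin and smooth muscle. Collagen VII builds the fibrils that tie the epidermis to the dermis, and its loss causes dystrophic epidermolysis bullosa. Collagen XVIII yields the fragment endostatin, which inhibits vessel growth, and collagen XV lies near muscle and capillaries.

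Total counts were 17461544 to 18462073 per library, of which the 9 collagens took 0.137% to 0.201%. Levels are given in CPM (counts scaled to library size) after TMM scaling, and levels of different genes are compared only as CPM per kb of exon. *Hmx1* was at 21.7 to 29.1 CPM in the WT libraries and at 52.9 to 77.5 CPM in the mEC1dup/dup libraries so that each knock-in library was above each WT library. *Xist*, the RNA of the inactive X chromosome, had 2 to 5 counts in each WT library but 12812, 19040, 18165, 2096 and 0 counts in mEC1dup/dup replicates 1 to 5. Only mEC1dup/dup replicate 5 resembled the WT libraries in *Xist*, so sex was largely, though not fully, confounded with genotype. The embryonic share of globin counts was 18.4% to 23.3% in WT and 32.5% to 35.6% in mEC1dup/dup libraries. These ranges do not overlap, so this share was fully confounded with genotype. Whether embryos of the genotypes differed in maturity was not tested. WT replicate 4 stood apart on the first principal component of log2 CPM, at -40.4 beside -11.1 to 28.3 for the other WT libraries. It was the lowest WT library in 6 of the 9 collagens, while WT replicate 1 was the highest in 6 of 9. mEC1dup/dup replicate 1 had a summed chondrocyte marker level of 2231 CPM, beside 4866 to 6608 CPM in the other mEC1dup/dup libraries.

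The collagen IV genes sit in head-to-head pairs that are read outward from a common region, and sequences at the starts are shown because members of a pair could share them. *Col4a1* (chr8:11248423-11362826, minus strand) and *Col4a2* (chr8:11362471-11499287, plus strand; GRCm39) overlap at their first exons. In the RefSeq promoter table (build GRCm38.p6), the start of *Col4a2* lies 21 bases inside *Col4a1*, so the stretch from the *Col4a2* start to the *Col4a1* start (chr8:11312805-11312826, plus strand) is read in both directions. *Col4a5* and *Col4a6* on chromosome X start 1343 bases apart in the same table and do not overlap. *Col7a1* is shown because it had the lowest p of the 8 tested members. The last 3 sequences are the 250 bases before the start, on the strand of the gene (*Col7a1*, chr9:108953336-108953585, plus; *Col4a5*, chrX:141475169-141475418, plus; *Col4a6*, chrX:141474077-141474326, minus). Capitals mark a GC box (GGGCGG or CCGCCC) or a CCAAT box (CCAAT or ATTGG).
Col4a1 and Col4a2: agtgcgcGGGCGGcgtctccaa
Col7a1: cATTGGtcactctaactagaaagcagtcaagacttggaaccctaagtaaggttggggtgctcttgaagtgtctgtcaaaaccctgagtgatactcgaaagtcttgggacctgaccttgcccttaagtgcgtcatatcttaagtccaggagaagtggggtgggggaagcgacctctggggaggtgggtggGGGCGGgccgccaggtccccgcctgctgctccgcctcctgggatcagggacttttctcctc
Col4a5: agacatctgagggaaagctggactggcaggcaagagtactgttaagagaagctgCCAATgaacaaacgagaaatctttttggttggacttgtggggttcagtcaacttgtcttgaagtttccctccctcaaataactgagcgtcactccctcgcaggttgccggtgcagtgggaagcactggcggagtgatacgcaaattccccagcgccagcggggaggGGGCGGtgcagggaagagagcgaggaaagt
Col4a6: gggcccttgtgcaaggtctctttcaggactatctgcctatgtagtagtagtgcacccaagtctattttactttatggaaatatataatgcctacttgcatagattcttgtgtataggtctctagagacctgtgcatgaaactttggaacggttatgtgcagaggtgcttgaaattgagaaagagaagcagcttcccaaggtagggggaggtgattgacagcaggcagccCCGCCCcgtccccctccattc

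The table held 9 windows for 8 of the 9 collagens, with 2 for *Col18a1*, whose long and short transcripts have separate starts that a count per gene does not split. A GC box lay in the 250 bases before the start in 5 of these 9 windows and in 32.7% of the 32851 windows of the table. A CCAAT box lay in 5 of 9 and in 33.8% of all windows. The core recognised by HMX factors (CAAGTG or CACTTG, either strand) was found in 1 of 9, that of *Col15a1*, and in 11.6% of all windows. A match of letters describes the window and says nothing of binding.

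Levels per length formed tiers. In WT embryos *Col4a1* led with 91.9 ± 13.7 CPM per kb (SD, n = 5), followed by *Col4a2* at 61.6 ± 10.1 and *Col18a1* at 50.1 ± 5.46. The ranges of these neighbours overlapped. *Col15a1* lay apart below them at 19.2 ± 3.18 CPM per kb. *Col4a5* (4.24 ± 0.458) and *Col7a1* (3.95 ± 1.03) overlapped each other, and *Col4a6* was lower at 1.15 ± 0.310 CPM per kb. *Col4a4* (0.0875 ± 0.0260) and *Col4a3* (0.0123 ± 0.0127) closed the list, without overlap with the gene above them.

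**Figure D1:**
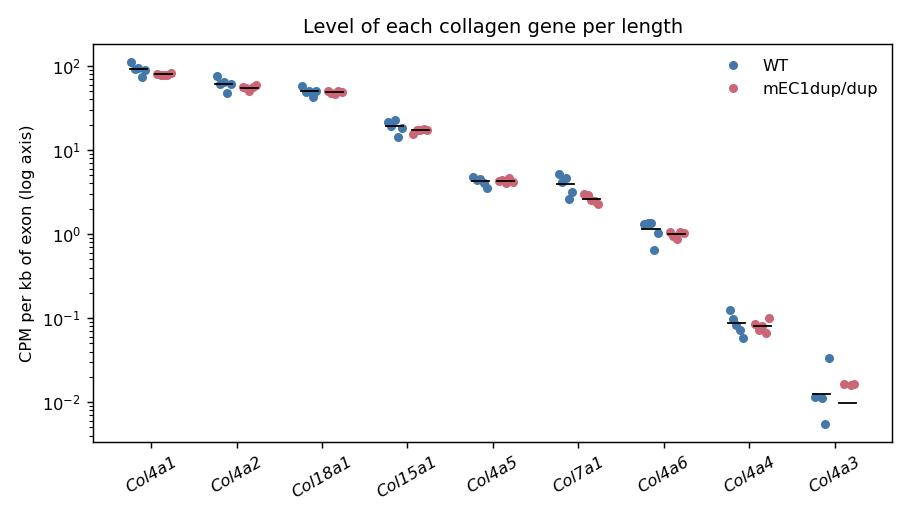
Level of each collagen gene in CPM per kb of exon on a log axis, ordered by the WT mean. Points are libraries (5 WT, 5 mEC1dup/dup), short lines are group means, and the 3 libraries without a *Col4a3* count are not drawn but enter its mean.

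In mEC1dup/dup embryos the order was the same, and no neighbours in it overlapped. *Col4a1* was at 79.2 ± 2.32 CPM per kb, *Col4a2* at 55.2 ± 3.42 and *Col18a1* at 48.6 ± 1.61. Every library had more *Col4a1* than *Col4a2* per length, by a ratio of 1.46 to 1.55 in WT and of 1.37 to 1.54 in mEC1dup/dup libraries.

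*Col4a1* and *Col4a2*, the common trimer, had lower means in mEC1dup/dup embryos, and neither passed the test. *Col4a1* was at 830, 680, 713, 545 and 661 CPM in WT replicates 1 to 5 and at 604, 576, 580, 581 and 615 CPM in mEC1dup/dup replicates 1 to 5. Every WT library but replicate 4 was above every mEC1dup/dup library, and replicate 4 was below them all. The log2 fold change was -0.21 ± 0.082 (SE), with an unadjusted p of 0.0216 and an adjusted p of 0.210 by edgeR's quasi-likelihood test. *Col4a2* was at 543, 433, 459, 339 and 437 CPM in WT and at 398, 390, 362, 400 and 431 CPM in mEC1dup/dup replicates. It showed the same arrangement, with WT replicate 4 below every mEC1dup/dup library and the other 4 above. Its log2 fold change was -0.16 ± 0.094 (adjusted p = 0.461, edgeR), with a 95% interval from -0.36 to 0.046.

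*Col7a1* had the lowest p of the tested members. It was at 53.1, 42.3, 48.0, 27.2 and 32.8 CPM in WT replicates 1 to 5 and at 30.7, 29.9, 26.2, 25.3 and 23.4 CPM in mEC1dup/dup replicates 1 to 5. WT replicate 4 lay among the mEC1dup/dup values, and the other 4 WT libraries lay above them all. WT embryos averaged 40.7 ± 10.7 CPM and mEC1dup/dup embryos 27.1 ± 3.11 CPM (mean ± SD of 5). The log2 fold change was -0.58 ± 0.16 (SE), the unadjusted p was 0.00237 and the adjusted p was 0.0663 by edgeR. In this bulk tissue, fewer cells of a type and less RNA per cell cannot be told apart.

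The proteoglycan collagens differed less than *Col7a1*. *Col15a1* was at 149, 136, 156, 100 and 125 CPM in WT and at 108, 122, 120, 125 and 120 CPM in mEC1dup/dup replicates. The groups overlapped through WT replicate 4, the lowest of all 10 libraries, and the log2 fold change was -0.16 ± 0.095 (adjusted p = 0.445, edgeR). *Col18a1* had the smallest shift among the abundant members, with 300 to 409 CPM (median 354) in WT and 327 to 355 CPM in mEC1dup/dup libraries. Its log2 fold change was -0.043 ± 0.064 (adjusted p = 0.798), and the 95% interval ran from -0.18 to 0.094. The gene *Slc19a1* overlaps 12.7% of the exon bases of *Col18a1* on the other strand and was at 24.3 to 31.1 CPM. How reads in the shared bases were counted was not stated, so the level of *Col18a1* could be too low or too high by that part.

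The minor collagen IV chains showed no difference that passed the test. *Col4a5* was at 44.1, 41.1, 41.8, 37.7 and 33.1 CPM in WT and at 39.6, 41.1, 37.9, 42.9 and 38.8 CPM in mEC1dup/dup replicates. The groups overlapped fully, with a log2 fold change of 0.018 ± 0.072 and a 95% interval from -0.14 to 0.17. *Col4a6* was at 10.5, 10.9, 10.9, 5.21 and 8.20 CPM in WT and at 8.34, 7.61, 6.90, 8.41 and 8.29 CPM in mEC1dup/dup replicates. WT replicate 4 was the lowest of all 10, and the log2 fold change was -0.21 ± 0.17 (adjusted p = 0.616, edgeR). Both genes are on chromosome X. mEC1dup/dup replicate 5, without a count of *Xist*, lay inside the range of its group for both.

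*Col4a4* was near the limit of detection at 0.665 to 1.44 CPM in WT and 0.755 to 1.14 CPM in mEC1dup/dup libraries. Its average log2 CPM of 0.098 kept it out of reach of a call, and its log2 fold change was -0.11 ± 0.25 (adjusted p = 0.869, edgeR). *Col4a3* had 2, 0, 2, 1 and 6 counts in WT and 0, 3, 0, 3 and 3 counts in mEC1dup/dup replicates. It did not pass the filter and was not tested. A library without a count still allows up to 3 counts, or 0.163 to 0.171 CPM in the libraries concerned.

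**Figure D2:**
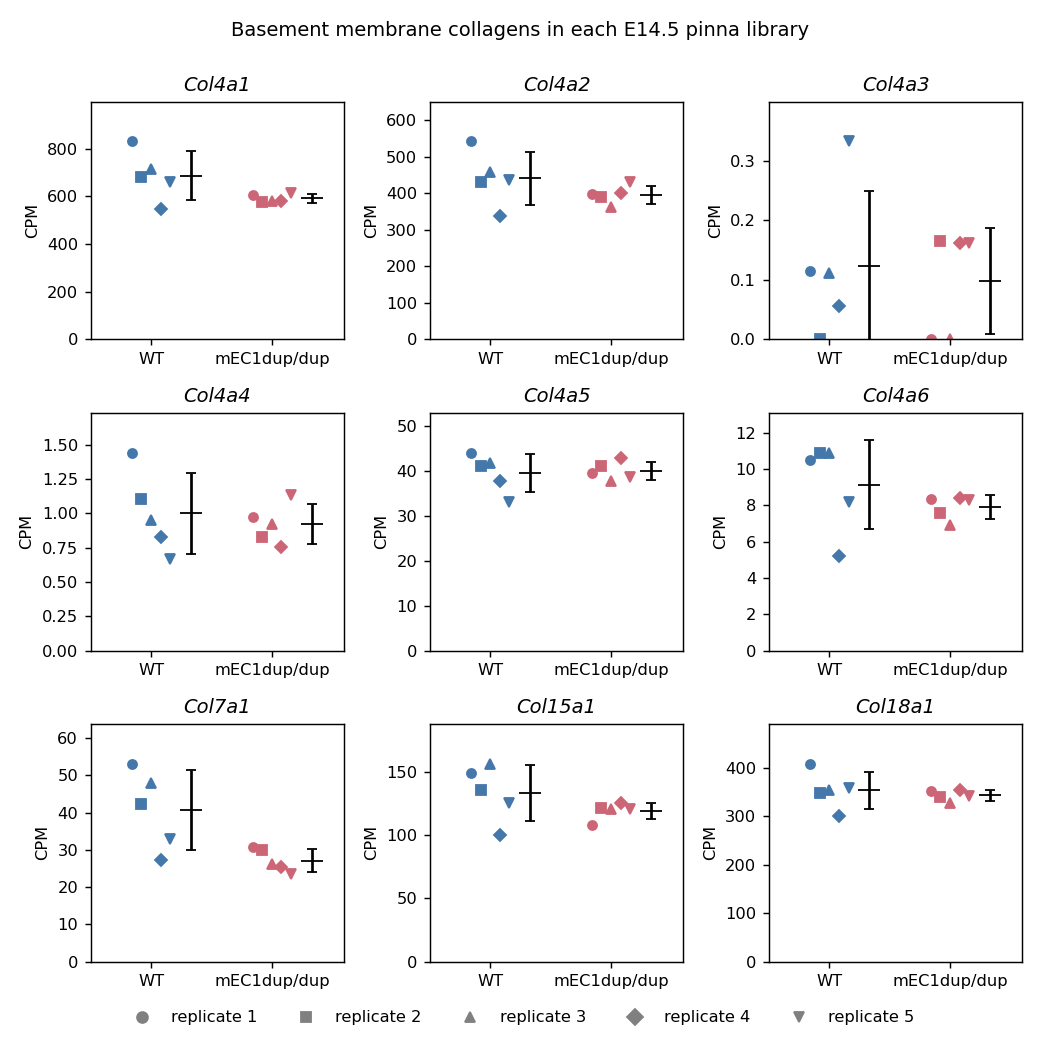
CPM of each of the 9 collagens in each library, with symbols for the replicate number and bars for the mean ± SD of 5 libraries, each panel on its own axis from 0. WT replicate 4 (diamond) is the lowest WT library in 6 panels, and the mEC1dup/dup libraries lie closer together than the WT libraries.

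None of the 8 tested collagens was called, that is, none had an adjusted p of at most 0.05 with an average log2 CPM of at least 1 in edgeR. Among all tested genes, 2.64% were called. At an unadjusted p under 0.05 there were 2 of 8 (*Col4a1*, *Col7a1*), against 16.2% of all tested genes. The log2 fold change was below 0 for 7 of 8, against 51.2% of all tested genes, with a median of -0.16 against -0.0042. No collagen had groups that did not overlap, a pattern with mEC1dup/dup lower that 2.75% of tested genes had. DESeq2's Wald test called 1 of 8, *Col7a1* (log2 fold change -0.58, adjusted p = 0.00456), and 5.16% of the genes it adjusted, while limma-voom called none of the 8 (2 at an unadjusted p under 0.05) and 2.40% of all. edgeR itself called *Col7a1* with no filter on low counts (adjusted p = 0.0263, among 461 calls in all). It also did so with the replicate number as a block (adjusted p = 0.0116 in edgeR, among 687 calls). Same-numbered libraries are different embryos with no stated pairing, so the block has no basis in the stated design.

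The count of calls depended on WT replicate 4. Without that library edgeR called 3 of 8 collagens, all lower in mEC1dup/dup embryos, while 2.87% of all tested genes were called lower. They were *Col7a1* (log2 fold change -0.70 ± 0.12, adjusted p = 0.00671), *Col4a1* (-0.29 ± 0.057, adjusted p = 0.0133) and *Col15a1* (-0.25 ± 0.061, adjusted p = 0.0369). *Col4a2* stayed outside at -0.24 with an adjusted p of 0.0597. Leaving out any other single library left the count at 0. WT replicate 1, the highest for most members, acted the other way, and without it *Col4a1* was at -0.14 (adjusted p = 0.400), *Col4a2* at -0.073 (0.746) and *Col18a1* at 0.014 (0.942). *Col15a1* was at -0.10 (adjusted p = 0.662) without WT replicate 3, and *Col4a6* ranged from -0.13 without WT replicate 2 to -0.36 without WT replicate 4 (adjusted p = 0.801 and 0.101). With mEC1dup/dup replicate 1 also left out, an alternative chosen after seeing the data, 2 were called against 3.41% of all tested genes called lower, *Col7a1* (-0.75, adjusted p = 0.00569) and *Col4a1* (-0.29, adjusted p = 0.0158). With embryonic globin as covariate, whose share does not overlap between genotypes, all 8 log2 fold changes were above 0, from 0.61 to 1.81, including the 7 that were below 0 without it. None was called by edgeR (0 genes in all), with 6 of 8 at an unadjusted p under 0.05 against 4.83% of all tested genes. *Col4a1* was then at 0.77 ± 0.24, *Col4a2* at 1.03 ± 0.25 and *Col7a1* at 0.95 ± 0.57 (log2 fold change ± SE), each with an adjusted p of 0.898 in edgeR.

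**Figure D3:**
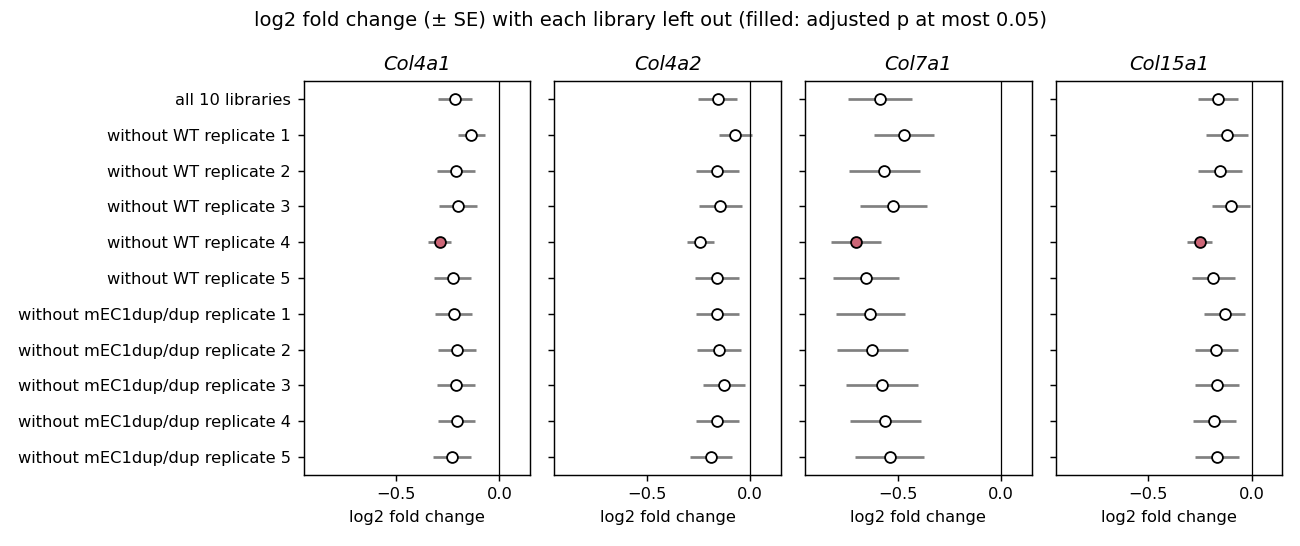
log2 fold change (mEC1dup/dup minus WT, bars ± SE) of *Col4a1*, *Col4a2*, *Col7a1* and *Col15a1* with all libraries and with each left out in turn, filled where the adjusted p was at most 0.05. The filled points of *Col4a1* (-0.29), *Col7a1* (-0.70) and *Col15a1* (-0.25) all belong to the fit without WT replicate 4.

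The collagens were more variable among WT embryos. The coefficient of variation of *Col4a1* was 14.9% in WT and 2.93% in mEC1dup/dup embryos, that of *Col4a2* 16.4% and 6.19%, and that of *Col7a1* 26.2% and 11.5%. It was higher in WT for each of the 8 tested members, as it was for 54.2% of all tested genes, and without WT replicate 4 for the same 8 and 44.3% of all tested genes. The difference in spread was not tested.

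Neighbouring genes were then compared across libraries, after removal of the genotype means. Deviations of *Col4a1* and *Col4a2* had r = 0.966 (p = 0.00022, adjusted over 2 pairs 0.00044) and rho = 0.855 (p = 0.00285, adjusted 0.0057), by permutation over 10 libraries. Without WT replicates 1 and 4, the farthest from the median, r was 0.722 (exact permutation p = 0.0334, n = 8). For *Col4a5* and *Col4a6*, r was 0.533 (p = 0.12, adjusted 0.12) and rho was 0.806 (p = 0.00742, adjusted 0.00742), again by permutation over 10 libraries. Without WT replicates 1 and 5, r was 0.669 (exact permutation p = 0.0449, n = 8), and without WT replicate 4 alone it was 0.817 (exact permutation p = 0.00921, n = 9). Without WT replicate 5 alone it was 0.717 (exact permutation p = 0.0197, n = 9). *Col4a1* and *Col4a2* share 311 exon bases on opposite strands, 4.17% and 4.33% of their lengths, and the strand setting of the counting was not stated. A small part of their reads could thus be counted to either gene or to neither. *Col4a3* and *Col4a4* were not correlated because *Col4a3* was not tested. High values were not particular to neighbours. Over the same 10 libraries, *Col4a2* and *Col18a1* were at r = 0.944, *Col4a1* and *Col18a1* at 0.931 and *Col4a6* and *Col15a1* at 0.860. Of the 26 pairs of members that are not neighbours, 20 had a higher r than *Col4a5* and *Col4a6*.

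**Figure D4:**
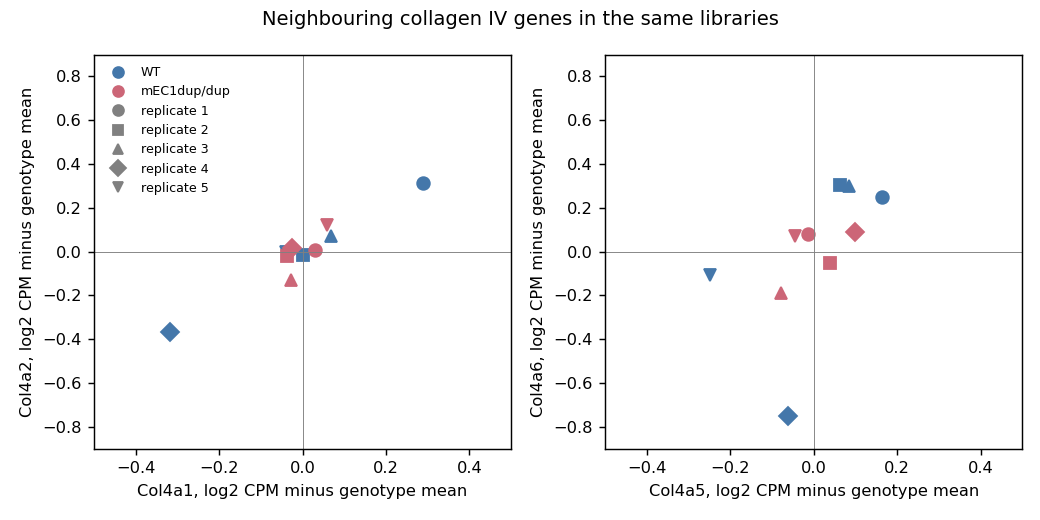
Deviation of log2 CPM from the genotype mean in each library, *Col4a2* against *Col4a1* (left, r = 0.966) and *Col4a6* against *Col4a5* (right, r = 0.533), with colours for genotype and symbols for replicate number. In the left panel WT replicates 1 and 4 form the ends, and in the right panel WT replicate 4 lies far below the rest on the *Col4a6* axis.

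The 3 genes that varied most like each member were taken from 14083 others (14084 for *Col4a4*). For *Col4a1* they were *Npr2* (r = 0.974), *Utp20* (0.967) and *Col4a2* (0.966), and for *Col4a2* they were *Odf2* (0.978), the laminin chain *Lamc1* (0.974) and *Col4a1* (0.966). *Col18a1* shared *Odf2* (0.960) and *Lamc1* (0.959) with *Col4a2* and was also near *H6pd* (0.958). *Col4a4* stood beside the epidermal genes *Dsg3* (0.969), *Dmkn* (0.966) and *Krt17* (0.962), and *Col4a5* beside *Ptgs1* (0.938), *Gm12411* (0.930) and the epithelial splicing factor *Esrp1* (0.926). *Col4a4* had only 12 to 25 counts in a library, so its deviations hold much counting error. Its values of r therefore say little of the cells that express it. *Col7a1* was nearest to *Ephb3* (0.982), *Stox2* (0.978) and *Phactr4* (0.974). *Col4a6* was nearest to *Crim1* (0.973), *Cblb* (0.969) and *Chst14* (0.967), and *Col15a1* to *Prkcsh* (0.985), *Pcnx3* (0.960) and *Clip3* (0.957). These values of r are over the same 10 libraries for every gene and are a description.

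Ratios within a library asked whether the members shifted relative to each other or to the cells that make them. Each of 5 log2 ratios was tested by exact permutation of the samples (two-sided, smallest possible p 0.00794), and none passed after adjustment over the 5. The log2 ratio of *Col4a5* to *Col4a1* was -4.11 ± 0.18 (SD, n = 5) in WT and -3.88 ± 0.096 (n = 5) in mEC1dup/dup embryos (exact p = 0.0476, adjusted 0.139). The ratio of *Col4a2* to *Col4a1* was -0.64 ± 0.034 and -0.58 ± 0.064 (exact p = 0.111, adjusted 0.185). That of *Col18a1* to *Col15a1* was 1.42 ± 0.16 and 1.53 ± 0.10 (exact p = 0.262, adjusted 0.278), a difference of 0.11 that was 0.051 without WT replicate 3 (exact p = 0.524) and 0.067 without mEC1dup/dup replicate 1 (exact p = 0.532).

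*Col7a1* comes largely from basal keratinocytes, and markers of these cells were read beside it. Their summed level was 916 to 1576 CPM in WT and 753 to 959 CPM in mEC1dup/dup libraries, and 3 of 8 markers were called lower (*Krt5*, *Krt14*, *Perp*), with none higher, where 1.81% of all tested genes were called lower. *Krt5*, a keratin of the basal layer, fell by 0.69 ± 0.15 on the log2 scale (adjusted p = 0.0257, edgeR). The epithelial adhesion genes *Epcam* (0.043 ± 0.091) and *Cdh3* (0.015 ± 0.069) had values near 0. The log2 level of *Col7a1* minus the mean of the 8 markers was -1.61 ± 0.21 in WT and -1.76 ± 0.12 in mEC1dup/dup embryos (n = 5 each, exact p = 0.278, adjusted 0.278). The difference of -0.14 was -0.22 without WT replicate 4 (exact p = 0.0397) and -0.071 without WT replicate 3 (exact p = 0.476). The part of the keratinocyte markers in the level of *Col7a1* was not tested otherwise.

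*Col4a1* is made in quantity by vessels, and endothelial markers were read beside it. None of the 8 endothelial markers was called by edgeR, with 1 at an unadjusted p under 0.05, where 2.64% and 16.2% of all tested genes were. The summed level was 517 to 638 CPM in WT and 537 to 600 CPM in mEC1dup/dup libraries. The log2 level of *Col4a1* minus the mean of these markers was 3.69, 3.57, 3.70, 3.34 and 3.45 in WT and 3.36, 3.38, 3.42, 3.35 and 3.37 in mEC1dup/dup replicates 1 to 5. Every WT library but replicate 4 was above every mEC1dup/dup library, and replicate 4 was below them all. The means were 3.55 ± 0.15 and 3.37 ± 0.027 (n = 5 each, exact p = 0.0556, adjusted 0.139). Without WT replicate 4 the difference was -0.23 (exact p = 0.00794, the smallest possible here), and without WT replicate 5 it was -0.20 (exact p = 0.0476).

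Markers of other cells that lie on or within basement membranes were counted too. Skeletal muscle markers, for fibres that are wrapped in laminin and collagen IV, summed to 1468 to 2220 CPM in WT and 835 to 1337 CPM in mEC1dup/dup libraries, with 5 of 8 called lower against 1.81% of all tested genes. The muscle regulators *Myod1* (0.089 ± 0.12, adjusted p = 0.786, edgeR) and *Myog* (0.12 ± 0.14, adjusted p = 0.745) were not called. Of the fibroblast markers 2 of 7 were called lower (9367 to 15410 CPM summed in WT, 9728 to 11230 in mEC1dup/dup), and of the pericyte markers 1 of 6 (435 to 603 and 481 to 515 CPM). Schwann cell markers, with 0 of 6 called by edgeR and 1 at an unadjusted p under 0.05, summed to 194 to 246 and 177 to 235 CPM. Among all tested genes, edgeR called 2.64%, and 16.2% had an unadjusted p under 0.05. No marker of these lists was at 0 in every library. Their part in the levels of the collagens was not tested.

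The partners of collagen IV were examined as lists of laminins, linkers and proteoglycans, collagen-modifying proteins, receptors and components of epidermal anchoring, 52 genes in all. Of these 52, all tested, 5 were called lower in mEC1dup/dup embryos and none higher, where 1.81% of all tested genes were called lower. At an unadjusted p under 0.05, 28 were lower and none higher, where 16.2% of all tested genes reached this p in either direction. By list they were 8 of 11 laminins, 4 of 10 linkers and proteoglycans and 7 of 17 collagen-modifying genes. They also included 6 of 10 receptors and 8 of 9 anchoring genes, and some anchoring genes are laminins or receptors too. The log2 fold change was below 0 for 49 of 52, against 51.2% of all tested genes, with a median of -0.15 against -0.0042. Counts moved with the libraries used, as did the calls over all genes, which numbered 434 with all libraries. Without WT replicate 4, 18 partners were called, the earlier 5 among them, of 655 genes in all. There were 3 of 260 without WT replicate 3, 2 of 220 without WT replicate 1, 2 of 220 without WT replicate 2, 2 of 178 without mEC1dup/dup replicate 2 and 2 of 154 without mEC1dup/dup replicate 3. Leaving out WT replicate 4 gave the most partner calls of any single library left out. Counts by list are given below only for that fit and were not made for the other libraries left out. With all libraries, DESeq2's Wald test called 14 partners of 831 genes in all. In edgeR, 14 of 687 were called with the replicate number as a block and 9 of 461 with no filter on low counts. With *Xist* or the embryonic globin share as a covariate, both of which run with genotype, edgeR called no partner (17 and 6 of 52 at an unadjusted p under 0.05), but only 3 and 0 genes were called in all (9.37% and 4.83% at an unadjusted p under 0.05).

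Among the 11 laminin genes, 1 was called lower (against 1.81% of all tested genes) and the median log2 fold change was -0.27. It was *Lama2*, the laminin chain of muscle and nerve whose loss causes a congenital muscular dystrophy. *Lama2* was at 35.2, 31.1, 30.6, 28.4 and 29.6 CPM in WT and at 24.2, 25.2, 25.1, 21.0 and 25.2 CPM in mEC1dup/dup replicates. All WT libraries lay above all mEC1dup/dup libraries, and the log2 fold change was -0.36 ± 0.071 (adjusted p = 0.0186, edgeR). The chains with the highest average log2 CPM, which is not scaled by length, were *Lamb1* (-0.19 ± 0.088), *Lamc1* (-0.27 ± 0.082) and the vascular chain *Lama4* (-0.23 ± 0.064), with adjusted p of 0.303, 0.106 and 0.0809. Without WT replicate 4, 6 of 11 laminins were called lower, *Lamc1* (-0.35) and *Lama4* (-0.27) among them, where 2.87% of all tested genes were called lower.

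Of the 10 linkers and proteoglycans, 1 was called lower (against 1.81% of all tested genes) and the median was -0.16. *Sparc*, a collagen-binding glycoprotein that also handles collagen IV, was at 2112, 2198, 1926, 1842 and 1977 CPM in WT and at 1716, 1717, 1698, 1739 and 1752 CPM in mEC1dup/dup replicates. The groups did not overlap, and the log2 fold change was -0.22 ± 0.045 (adjusted p = 0.0217, edgeR). Next in average log2 CPM, the proteoglycan agrin (*Agrn*) was at -0.11 ± 0.065 and nidogen 2 (*Nid2*) at -0.15 ± 0.080, with adjusted p of 0.461 and 0.377. In the fit without WT replicate 4, 4 of 10 were called lower (against 2.87% of all tested genes).

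Among 17 genes that modify, fold or export collagen chains, 2 were called lower (against 1.81% of all tested genes) and the median was -0.0996. They were *P4ha1* and *P4ha2*, catalytic subunits of the prolyl 4-hydroxylase that stabilises the collagen helix. *P4ha1* was at 207, 224, 231, 202 and 211 CPM in WT and at 166, 175, 185, 174 and 168 CPM in mEC1dup/dup replicates, without overlap. Its log2 fold change was -0.31 ± 0.045 (adjusted p = 0.00493, edgeR). *P4ha2* was at 97.5, 94.6, 96.8, 75.9 and 89.8 CPM in WT and at 70.9, 76.5, 69.5, 73.8 and 76.4 CPM in mEC1dup/dup replicates, and WT replicate 4 overlapped. Its log2 fold change was -0.31 ± 0.063 (adjusted p = 0.0224). Both enzymes act on all collagens, not only on those described here. The 3 with the highest average log2 CPM, the chaperone *Serpinh1* (-0.10 ± 0.032), *P4hb* (-0.065 ± 0.036) and the collagen IV crosslinking peroxidase *Pxdn* (-0.052 ± 0.071), had adjusted p of 0.130, 0.421 and 0.780. Once WT replicate 4 was left out, 4 of 17 were called lower (against 2.87% of all tested genes), with *Serpinh1* (-0.12, adjusted p = 0.0382) and *Plod1* (-0.22, adjusted p = 0.00890) joining the prolyl hydroxylases. The 17 genes summed to 5620 to 6247 CPM in WT libraries. Their sum was 5327 CPM in mEC1dup/dup replicate 1 and 5590 to 5772 CPM in the other mEC1dup/dup libraries. That replicate also had the low chondrocyte marker sum (2231 CPM), and the part of this was not tested.

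None of the 10 receptors was called by edgeR, with 6 lower and none higher at an unadjusted p under 0.05, against 2.64% called and 16.2% at this p among all tested genes. Those with the highest average log2 CPM were *Itgb1*, the beta subunit of the collagen and laminin integrins, at -0.090 ± 0.031 (log2 fold change ± SE, adjusted p = 0.167, edgeR), dystroglycan (*Dag1*), a laminin receptor, at -0.18 ± 0.050 (adjusted p = 0.0690) and the collagen receptor *Ddr2* at 0.071 ± 0.059 (adjusted p = 0.614). Without WT replicate 4, 2 of 10 were called lower, *Dag1* and *Itgb4*, beside 2.87% of all tested genes.

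The 9 genes that anchor the epidermis had the lowest median of the partner lists, -0.36, with 1 called lower (against 1.81% of all tested genes). This was *Plec*, the hemidesmosomal linker plectin, which is also present in muscle, at 186, 177, 191, 140 and 176 CPM in WT and 151, 142, 139, 129 and 135 CPM in mEC1dup/dup replicates. WT replicate 4 overlapped with the mEC1dup/dup libraries, and the log2 fold change was -0.32 ± 0.073 (adjusted p = 0.0350, edgeR). Next in average log2 CPM, *Dst* (-0.24 ± 0.061, adjusted p = 0.0527) and *Itga6* (-0.12 ± 0.047, adjusted p = 0.210) were not called. With WT replicate 4 left out, 5 of 9 were called lower (against 2.87% of all tested genes).

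**Figure D5:**
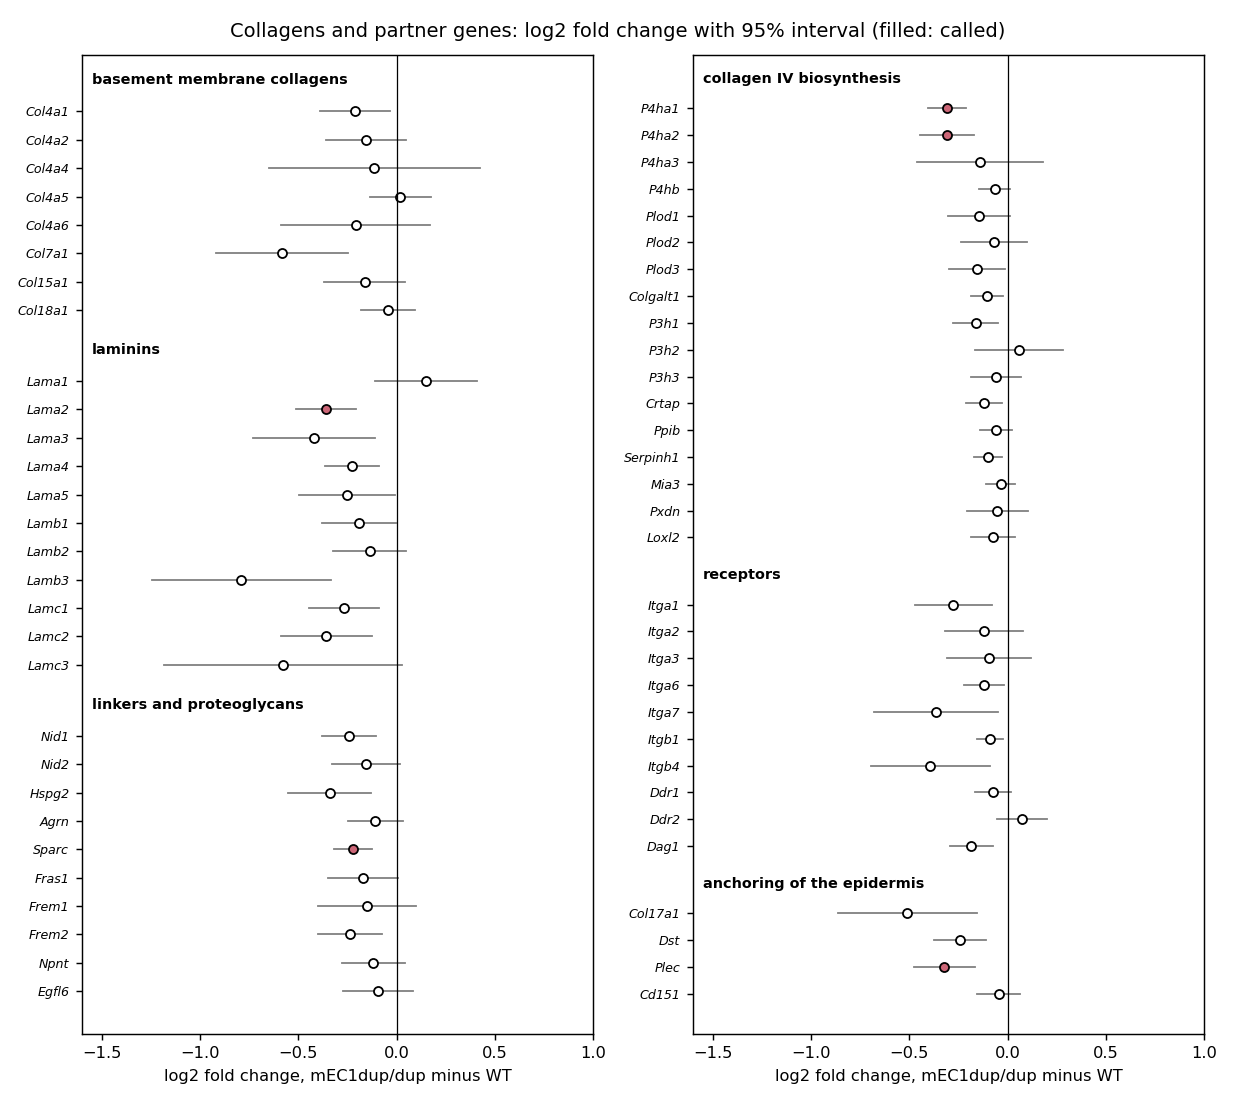
log2 fold change (mEC1dup/dup minus WT) of the 8 tested collagens and the 52 partner genes with 95% intervals, by list, filled where called, each gene drawn once under its first list. The 5 filled points (*Lama2*, *Sparc*, *P4ha1*, *P4ha2*, *Plec*) lie between -0.36 and -0.22, and no collagen is filled.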

How the data were processed

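RNA-seq libraries of 5 WT and 5 mEC1dup/dup pinnae were analysed. Per the methods, the authors used fastp for trimming, STAR for alignment (GRCm39) and featureCounts, and deposited raw counts per gene. The annotation release and strand setting are not given in the sources used here, and neither library kit named marks strand. Symbols came from GENCODE vM39. Genes were filtered by filterByExpr, scaled by TMM and tested with edgeR version 4.0.16 in R version 4.3.3 (quasi-likelihood, genotype only, Benjamini-Hochberg over 16426 genes), and the steps were tested on simulated data. Log2 CPM had a prior count of 2. The 95% intervals come from the edgeR fit and include variation between embryos, while floors from counts cover counting error only. No libraries of a genotype agreed within sampling noise. Alternatives used DESeq2 version 1.42.0, limma version 3.58.1, other scalings, filters and covariates, and libraries left out. Members and lists were chosen with earlier results of these data known. Named partners are those called and the 3 of each list with the highest average log2 CPM, not scaled by length. Promoters came from RefSeq (GRCm38.p6).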

Additional observations from a re-analysis of the deposited data

Results flagged for a closer look

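Among 28 groups of 5 values examined for a single library far from the rest, 2 were flagged, where chance flags about 1 group in 20. Both came from mEC1dup/dup replicate 1 and share its *Col15a1* value, so they are not separate observations. Its *Col15a1* level, 108 CPM, was the lowest of the mEC1dup/dup libraries, and the gap to the next (120 CPM) was 0.725 of the range, above the limit of 0.71. Its log2 ratio of *Col18a1* to *Col15a1*, 1.71, was the highest, and the gap to the next (1.51) was 0.751 of the range. This library also had the fewest chondrocyte marker counts, 2231 CPM, and the part of that difference was not tested.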

How the results depend on the processing

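Scaling by the size factors of DESeq2 or by upper quartile, limma-voom and a minimum of 10 counts kept the count of called collagens at 0 and that of partners at 5 or 6. More were called by DESeq2's Wald test (1 collagen and 14 partners among 831 calls over all genes, against 434 in the main analysis), with no filter on low counts (1 and 9 of 461), and without WT replicate 4 and mEC1dup/dup replicate 1 together, an alternative chosen after seeing the data (2 and 21 of 813). With *Xist* or the embryonic globin share as a covariate, 0 partners were called (of 3 and 0 calls). The replicate number as a replicate block gave 1 and 14 of 687. The 1 collagen was *Col7a1* in each case, at -0.58 by DESeq2's Wald test (adjusted p = 0.00456), -0.58 with no filter (adjusted p = 0.0263, edgeR) and -0.56 under the block (adjusted p = 0.0116, edgeR). Same-numbered libraries are different embryos with a mean correlation of 0.162 and 1 pair at -0.0558, and only 1 of 5 numbers matched best with itself. The replicate block left the *Col4a5* to *Col4a1* difference at 0.22 (exact p = 0.0625, the smallest that 5 pairs allow).

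With the globin share as a covariate, log2 fold changes turned to 0.77 (*Col4a1*), 1.03 (*Col4a2*), 1.81 (*Col4a4*), 1.49 (*Col4a6*), 0.95 (*Col7a1*), 0.85 (*Col15a1*) and 0.61 (*Col18a1*), each with an adjusted p of 0.898, and 6 of the 8 collagens, *Col4a5* included, had an unadjusted p under 0.05. With *Xist* as a covariate, *Col4a4* was at 0.067 and *Col4a5* at -0.013, *Col4a2* moved to -0.061 (adjusted p = 0.940, edgeR) and *Col7a1* to -0.81 (adjusted p = 0.364). The cause was not tested.

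With each library left out, called collagens ranged from 0 to 3 and partners from 2 to 18. Differences in log2 ratio ranged from 0.042 to 0.083 (*Col4a2* to *Col4a1*, exact p = 0.0238 without mEC1dup/dup replicate 3), 0.17 to 0.29 (*Col4a5* to *Col4a1*), 0.051 to 0.15 (*Col18a1* to *Col15a1*), -0.22 to -0.071 (*Col7a1* to keratinocyte markers) and -0.23 to -0.14 (*Col4a1* to endothelial markers), and r of *Col4a5* with *Col4a6* from 0.463 to 0.817. The log2 fold changes of *Col4a4* (-0.23 to 0.053), *Col4a5* (-0.040 to 0.060) and *Col18a1* (-0.10 to 0.014) crossed 0. *Col4a3* did not pass the filter on low counts, and the average log2 CPM of *Col4a4* was too low for a call.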
